A study of Mus musculus with 12 samples.

Results

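Homeobox genes outside the Hox clusters, together with the Pax and Pou genes, encode transcription factors that assign regional and cell-type identity in the embryo. A homeodomain binds short AT-rich DNA, and a Pax protein has a paired domain. A Pou protein has a POU-specific domain that reads an octamer together with its homeodomain. Many act in overlapping domains of the neural plate, placodes, neural crest and mesoderm, and the TALE subgroup (Meis, Pbx and Pknox) binds DNA together with Hox proteins. These genes were selected by their symbols on probe sets annotated to a single gene, leaving out Pou5f1 and pseudogenes. The symbol rule uses no measured value, but it was drawn up with earlier results of these data known. The selection held 97 of the 18193 genes measured. Of these, 87 are homeobox or Pax protein genes, and the other 10 are Pou2af1, a coactivator of octamer-binding factors, and opposite-strand transcripts that carry such a symbol. The first array type, MOE430A (chip A), measured 82 of the 97 on 112 probe sets, the second, MOE430B (chip B), measured 39 on 50 probe sets, and 24 genes were on both.

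The groups were undifferentiated J1 mouse embryonic stem (ES) cells and embryoid bodies (EB), the aggregates that such cells form in suspension as they begin to differentiate. Before RNA extraction the ES cells spent 2 days on 0.1% gelatin in medium with leukemia inhibitory factor and 10% fetal bovine serum, with an estimated purity of 95%. The EB spent 5 days in bacterial-grade Petri dishes, also at 10% serum, and no leukemia inhibitory factor is listed for their medium. No genetic alteration of J1 is given. Each group had 3 replicates, and each replicate was hybridised to both chips, giving 12 arrays. The labels do not say that replicates came from separate cultures, so p-values reflect sample-to-sample spread alone, part of which may be technical. Values were MAS5 signals, a linear measure of probe brightness, and the median signal of an array lay between 586.8 and 679.1 on chip A and between 907.1 and 995.6 on chip B. In such bulk RNA, fewer cells of a type and less RNA per cell cannot be told apart.

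The labels were checked against marker genes, first on chip A. Of 12 ES cell markers, 9 fell in EB, and their summed signal was 138690 to 236000 in ES and 60699 to 75116 in EB. Its lowest ES value belonged to ES replicate 3, and all calls on the selected genes of chip A were kept without that array. Of 18 feeder fibroblast markers, 7 fell, with sums of 26834 to 42488 in ES and 11656 to 14551 in EB. Of 11 early neural markers, 5 rose, with sums of 5063 to 7313 in ES and 17032 to 28549 in EB. Of 11 primitive streak and early mesoderm markers, 3 rose. Of 10 extraembryonic endoderm markers, 0 were called. Chip B held fewer markers: 1 of 3 ES cell markers fell, 2 of 4 early neural markers rose and 1 of 4 extraembryonic endoderm markers rose. Of 4 feeder fibroblast markers there, 0 were called, and their sums overlapped (835 to 2145 in ES, 861 to 2410 in EB). Scan day and chip lot cannot be told apart from the group: no day and no lot held arrays of both groups on either chip.

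In EB, 14 of the 97 genes rose and 3 fell, each by the probe set that stood for the gene on 1 chip. On chip A the 6 that rose were Lhx2, Meis2, Six5, Otx2, Pbx2 and Pax6. On chip B the 8 that rose were Otx1, Emx2, Pou3f2, Pax3, Tgif2, Pou4f1, Pbx3 and Pax1, and the 3 that fell were Gbx1, Nkx6-3 and Pax5. A gene was called when limma's test gave an adjusted p under 0.05, after Benjamini-Hochberg adjustment over all probe sets of its chip. The 6 rising members were 7.32% of the 82 on chip A, where 3.46% of all genes rose. None of the 82 fell, against 3.45% of all genes, and 3 of them were lower at an unadjusted limma p under 0.05. The 8 rising members were 20.5% of the 39 on chip B, against 6.35% of all genes, and the 3 falling members were 7.69%, against 6.56%. The median log2 change was 0.01 for members and -0.07 for all genes on chip A, and 0.10 and -0.02 on chip B. A change above 0 was seen in 41 of the 82 members on chip A, against 5379 of all 12393 genes, and in 21 of the 39 on chip B, against 4703 of all 9607.

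**Figure D1:**
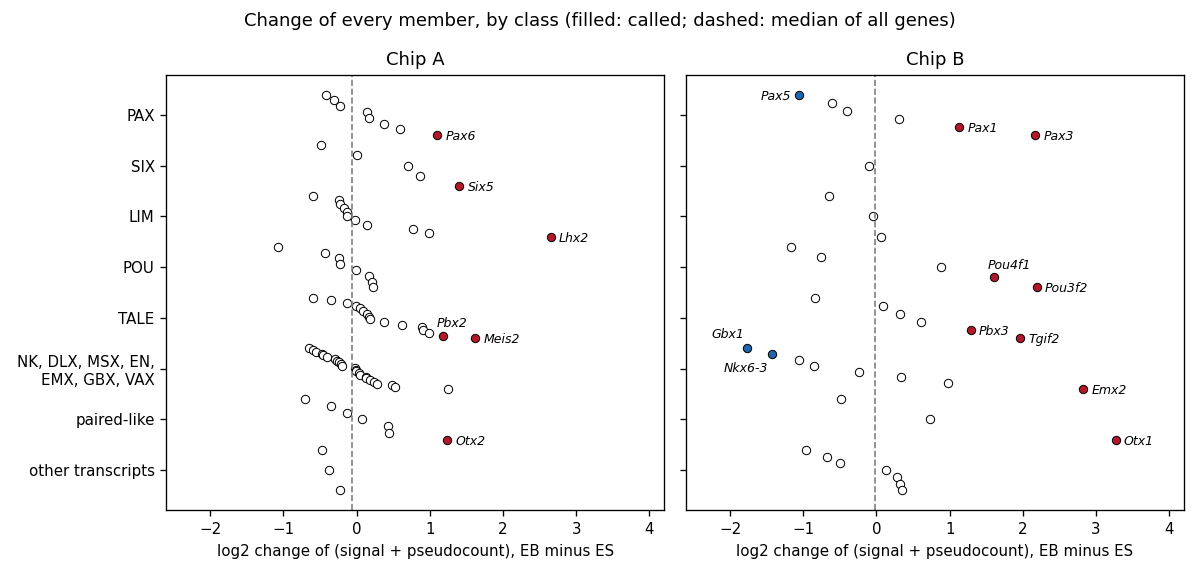
Each point is 1 member on 1 chip, placed by its log2 change of signal plus pseudocount (x axis, EB minus ES) and its class (y axis). Filled points passed an adjusted p of 0.05, and the dashed line is the median of all genes on the chip. Most points lie close to that line, and the 14 filled points to its right include Otx1 at 3.27, Emx2 at 2.82 and Lhx2 at 2.65.

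Changes are given on the scale of log2(signal + pseudocount), with a pseudocount of 137 on chip A and 253 on chip B. This scale understates the change of genes whose signal is near or below the pseudocount.

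Genes of the anterior neural plate, forebrain and eye that rose were Otx1, Emx2, Lhx2, Otx2 and Pax6. Otx1, an orthodenticle-family factor of the cerebral cortex and sense organs, had the largest log2 change of any member on this scale. It read 34, 79 and 56 on the 3 ES arrays and 4199.9, 1877 and 2534 on the 3 EB arrays of chip B. Every ES value lay below the pseudocount and every EB value far above it. The log2 change was 3.27 (SE 0.40, adjusted p = 0.00205).

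Emx2, which patterns the dorsal telencephalon and is also needed in the urogenital tract, followed on the same chip. Its ES signals were 675, 557 and 110.3, and its EB signals were 4622, 4532 and 3886. The groups did not overlap, and the third ES array was the low one within its group. The log2 change was 2.82 (SE 0.38, adjusted p = 0.00285).

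Lhx2, a LIM-homeodomain factor required for the eye field and the cortex, led chip A. ES arrays gave 288, 45 and 187, and EB arrays gave 2396, 2229.5 and 895. The third EB array was the lowest of its group but still above every ES array. Its log2 change was 2.65 (SE 0.43, adjusted p = 0.00918).

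Otx2, which is already active in the epiblast and is required for the forebrain and midbrain, was bright in both groups. Its signals were 1316, 981 and 1434 in ES and 4232, 2577 and 2643 in EB. The lowest EB array exceeded the highest ES array, and the log2 change was 1.23 (SE 0.23, adjusted p = 0.0152).

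Pax6, the paired-box factor of the eye and dorsal forebrain, rose by the probe set that stands for it on chip A. That probe set read 389.6, 419 and 547 in ES and 1416, 1206 and 811 in EB, with no overlap, for a log2 change of 1.10 (SE 0.27, adjusted p = 0.0453). The other 4 Pax6 probe sets did not pass, with log2 changes from -0.06 to 1.11.

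**Figure D2:**
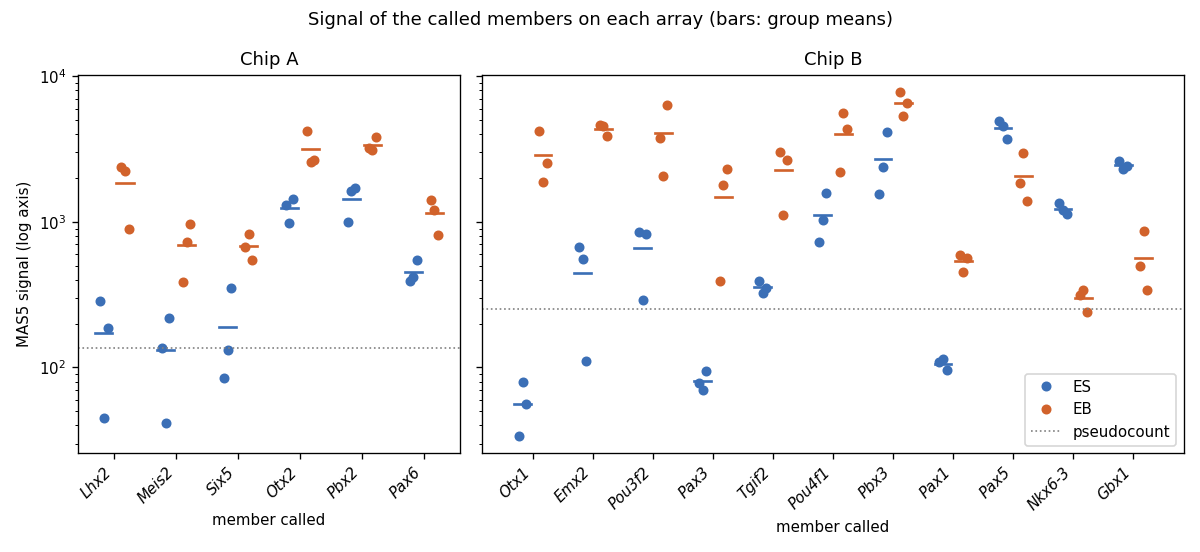
Signal of the 17 called members on each array (log axis), with 6 genes on chip A and 11 on chip B. Points are single arrays, bars are group means of 3 arrays, and the dotted line is the chip's pseudocount. No ES and EB points of a gene overlap, and Otx1, Pax3 and Pax1 lie below the pseudocount on every ES array.

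The promoter windows of 3 of these rising forebrain genes are shown because some of them hold the short AT-rich core that homeodomains recognise. Both Otx2 windows that hold the core are shown. Each window runs from 250 bases before to 50 bases after a RefSeq start site (GRCm38.p6), 5′ to 3′ on the gene's strand. Capitals mark TAATTA, which reads the same on both strands.
Otx2, chr14:48665060-48665359, minus strand: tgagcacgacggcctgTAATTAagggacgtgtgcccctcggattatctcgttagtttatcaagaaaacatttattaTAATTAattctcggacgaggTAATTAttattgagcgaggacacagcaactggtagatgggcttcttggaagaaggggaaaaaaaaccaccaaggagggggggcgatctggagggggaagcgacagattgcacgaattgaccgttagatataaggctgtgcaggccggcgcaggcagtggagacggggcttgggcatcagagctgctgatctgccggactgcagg
Otx2, another start site, chr14:48667595-48667894, minus strand: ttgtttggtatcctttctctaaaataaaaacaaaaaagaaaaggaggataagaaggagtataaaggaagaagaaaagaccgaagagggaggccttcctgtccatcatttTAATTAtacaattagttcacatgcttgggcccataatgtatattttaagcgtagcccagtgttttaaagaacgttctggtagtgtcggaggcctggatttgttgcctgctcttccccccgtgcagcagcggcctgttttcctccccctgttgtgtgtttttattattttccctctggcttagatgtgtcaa
Emx2, chr19:59458440-59458739, plus strand: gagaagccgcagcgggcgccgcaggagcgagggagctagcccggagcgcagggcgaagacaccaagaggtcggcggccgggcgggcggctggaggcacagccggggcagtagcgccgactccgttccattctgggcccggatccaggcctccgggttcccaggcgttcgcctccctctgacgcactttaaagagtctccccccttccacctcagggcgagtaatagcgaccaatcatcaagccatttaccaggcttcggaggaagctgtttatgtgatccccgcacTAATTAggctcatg
Lhx2, chr2:38339031-38339330, plus strand: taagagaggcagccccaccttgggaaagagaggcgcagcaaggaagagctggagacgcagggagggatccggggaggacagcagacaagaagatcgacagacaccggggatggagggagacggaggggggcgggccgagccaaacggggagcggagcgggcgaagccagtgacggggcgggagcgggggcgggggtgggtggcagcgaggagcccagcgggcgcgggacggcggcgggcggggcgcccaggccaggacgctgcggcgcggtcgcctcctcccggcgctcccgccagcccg
The first Otx2 window held 3 matches, which began 234, 174 and 154 bases before the start site. The second Otx2 window held 1 match, 141 bases before it, and the Emx2 window held 1 match downstream of it. The table has 4 Otx2 windows, and the other two, not shown, lacked the core, as did both Lhx2 windows.

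Of the 87 protein genes, 62 had promoter windows in the RefSeq table, 75 windows in all. TAATTA was in 5 of the 75 (6.67%), against 5.29% of all 32851 windows. Among the 16 windows of rising members it was in 3 (18.8%), and these 3 belong to only Otx2 and Emx2. The Pou octamer ATGCAAAT, searched on both strands, was in none of the 75 and in 1.74% of all windows, which says only that these letters are not in these windows. Members' windows had a median of 18 CpG dinucleotides and 60.3% G and C, against 7 and 52.7% for all windows.

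Other forebrain and eye genes stayed near the level of detection or missed the threshold. Of 18 such genes on chip A, 2 rose (Lhx2 and Pax6), against 3.46% of all genes. Of 6 on chip B, 2 rose (Otx1 and Emx2), against 6.35% of all genes. None of the forebrain and eye genes fell on either chip, where 3.45% and 6.56% of all genes fell. On each chip 1 of them was lower at an unadjusted limma p under 0.05. Lhx5, a LIM factor of the forebrain and spinal cord, read 405, 428 and 336 in ES and 896, 1161 and 718 in EB. The groups did not overlap, but the adjusted p was 0.0606 for a log2 change of 0.996. Irx1, an Iroquois factor of the neural plate, was close to it, at 253, 439.5 and 432 in ES and 815, 917 and 694 in EB (log2 change 0.90, adjusted p = 0.0935).

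Six6, an eye and pituitary factor, read 116, 164 and 18 in ES and 218, 280.3 and 339 in EB, without overlap (log2 change 0.86, adjusted p = 0.127). The ventral telencephalic genes Dlx1, Dlx2, Dlx5, Dlx6 and Nkx2-1 all overlapped between groups except Nkx2-1, and none passed. On chip B Pou3f3, a cortical POU factor, read 1869, 1212 and 772 in ES and 2026, 3364 and 2204 in EB (log2 change 0.89, adjusted p = 0.118). On chip A the same gene read 256, 458 and 22 in ES and 18, 31 and 16 in EB (log2 change -1.07, adjusted p = 0.155). The 2 probe sets thus pointed opposite ways, neither of them past the threshold. Vax1, of the ventral optic stalk, was bright but not called on chip B, at 3383, 4027 and 2139.9 in ES and 1279, 2342 and 1348 in EB (log2 change -0.85, adjusted p = 0.109). On chip A Vax1 was below the pseudocount in both groups (log2 change 0.03).

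Among the 5 genes of the epiblast and anterior ectoderm on chip A, only Otx2 passed the threshold. Over all genes of that chip, 3.46% rose and 3.45% fell. Pou3f1, a POU factor induced as ES cells leave the naive state, read 557, 882 and 1602 in ES and 891, 625 and 497 in EB. The values overlapped, and the log2 change was -0.44 with a 95% interval from -1.23 to 0.36. The second Pou3f1 probe set did not overlap between groups, at 748, 1017 and 1545 in ES and 734, 566 and 284 in EB, and had a log2 change of -0.91 (95% interval -1.69 to -0.13, adjusted p = 0.156). Hesx1, a repressor of the anterior neural ridge and pituitary, was equally spread, with 214, 729 and 444 in ES and 1199.8, 486 and 401 in EB (log2 change 0.45, 95% interval -0.53 to 1.43). Gbx2, which sets the posterior border of the Otx2 domain, read 536, 563 and 246 in ES and 146, 103 and 541 in EB (log2 change -0.66, 95% interval -1.64 to 0.33). Six3, a rostral forebrain factor, had signals of 469, 713 and 489.5 in ES and 1448, 938 and 689.7 in EB, with an adjusted p of 0.204 for a log2 change of 0.71 (95% interval 0.03 to 1.38). Other Six3 probe sets of chip A were dimmer and not called, with log2 changes of -0.03 and -0.59. The intervals of Hesx1 and of the brightest Six3 probe set are wide enough that changes of about the size seen for Otx2 lie inside them.

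Of the Hox cofactors of the TALE class, Pbx2 and Meis2 rose on chip A and Pbx3 on chip B. Pbx2, a ubiquitous partner of Hox and Meis proteins, read 995, 1628 and 1719 in ES and 3206, 3104 and 3856 in EB on its brightest probe set. Every EB array lay above every ES array, and the log2 change was 1.18 (SE 0.21, adjusted p = 0.0138). A dimmer Pbx2 probe set also rose, from 124, 98 and 40.3 to 626, 653 and 895 (log2 change 1.95, adjusted p = 0.00728), while the remaining one missed the threshold (0.62 on the log2 scale). Pbx2 was the only member with more than 1 called probe set.

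Pbx3, whose loss in mice affects the brainstem, rose on chip B. ES signals were 1545, 2397 and 4156, EB signals were 7801, 5373 and 6526, and the log2 change was 1.29 (SE 0.31, adjusted p = 0.0283). The ES values spread widely, but their highest remained under the lowest EB value. Its chip A probe set read 654, 1419.5 and 1074 in ES and 2212, 1827 and 2402 in EB, with a similar log2 change of 0.99 that just missed the threshold (adjusted p = 0.0522).

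Meis2, a Pbx partner active in forebrain, limb and heart, rose on chip A from 136, 41 and 217 in ES to 389, 726 and 968 in EB (log2 change 1.62, SE 0.38, adjusted p = 0.0374). The groups were separate, with ES values near or below the pseudocount. The brightest Meis2 probe set of chip B was high in both groups, at 2419.7, 2612 and 2306 in ES and 2739, 3255 and 3369 in EB, and did not pass (log2 change 0.32, adjusted p = 0.367). Meis1, its close paralog, had ES signals of 11, 9.9 and 9.8 on chip A, far below the pseudocount, and EB signals of 270.3, 113 and 66. All 3 EB values were above all ES values, yet only the first exceeded the pseudocount, and the adjusted p was 0.0666. On chip B Meis1 read 2843, 3105 and 2803 in ES and 2439.5, 4644 and 2686 in EB, with a log2 change of 0.10.

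Of 8 Hox cofactors on chip A, 2 rose, against 3.46% of all genes. Of 5 on chip B, 1 rose, against 6.35% of all genes. None of these cofactors fell on either chip, where 3.45% and 6.56% of all genes fell. At an unadjusted limma p under 0.05, 0 and 1 of them were lower. Their median log2 changes were 0.76 and 0.32, against -0.07 and -0.02 for all genes. Pknox1, a Pbx partner of the Prep subfamily, was the one with values pointing down on both chips, at 704, 879 and 679 in ES and 319, 333 and 277 in EB on chip B (log2 change -0.83, adjusted p = 0.142).

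Tgif2, a TALE repressor that dampens transforming growth factor beta signalling, rose on chip B from 393, 324 and 351 in ES to 3040.4, 1117 and 2679 in EB. The second EB array was the lowest of its group and still above all ES arrays (log2 change 1.96, SE 0.41, adjusted p = 0.0170). Its chip A probe set was bright and level, at 4023, 4188 and 3517 in ES and 3877, 4017 and 4177 in EB. There the log2 change was 0.04 with a 95% interval from -0.26 to 0.35, so the 2 probe sets of this gene differ well beyond their errors. Tgif1, the paralog on chip A, was the brightest member that was not called in its class, at 5138, 4524 and 4995 in ES and 6983, 5417 and 4591 in EB (log2 change 0.19).

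Further rises on chip B were in Pou3f2, Pou4f1 and Pax3. Pou3f2, a POU factor of neural progenitors and upper-layer cortical neurons, had signals of 858, 291 and 825 in ES and 3778, 2078 and 6364 in EB. No values overlapped, and the log2 change was 2.19 (SE 0.43, adjusted p = 0.0129). Pou4f1, a POU factor of sensory neurons, read 732, 1029.7 and 1568 in ES and 2187, 5613 and 4319 in EB (log2 change 1.61, SE 0.37, adjusted p = 0.0232). Its first EB array was the low one, at less than the other two but above the ES range.

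Pax3, a marker of the dorsal neural tube, neural crest and muscle progenitors, was below the pseudocount on every ES array of chip B, at 78, 69.5 and 95. In EB it reached 391, 1788 and 2303, with the first array far below the others (log2 change 2.16, SE 0.50, adjusted p = 0.0252). On chip A the probe set that stands for Pax3 read 553, 950.4 and 502 in ES and 664, 796 and 762 in EB, with a log2 change of 0.16 (95% interval -0.46 to 0.79).

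Midbrain and hindbrain genes gave 0 calls among 9 on chip A, with none at an unadjusted limma p under 0.05 in either direction, and on chip B Pou3f2 rose and Pax5 fell among 4. Pou3f2 was counted in this set although it also acts in neural progenitors and cortical neurons, as given above. Over all genes, 3.46% rose and 3.45% fell on chip A, and 6.35% rose and 6.56% fell on chip B. With so few genes in a set, 0 calls can occur at such shares. En1 and En2, the engrailed factors of the midbrain-hindbrain border, read between 82 and 378 on all arrays and overlapped. Lmx1b, of the isthmus and dorsal limb, was bright without a difference on chip B, at 1559, 2311 and 1692 in ES and 1934, 2224 and 1672 in EB (log2 change 0.07). Spinal cord and neural crest genes gave 0 calls among 14 on chip A, and 2 of 5 rose on chip B. At an unadjusted limma p under 0.05, 2 of the 14 were higher (Msx2 and Isl1) and 1 was lower. Msx2 and Isl1 are also counted in other sets given below.

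Within the spinal cord and neural crest set, Msx2, a factor of the dorsal neural tube, read 172, 459.8 and 327 in ES and 846, 599 and 1434 in EB on chip A. The groups did not overlap (log2 change 1.24, adjusted p = 0.0793). On chip B Msx2 had a log2 change of 0.34 (adjusted p = 0.533). Its relative Msx1 was at 1213, 1037 and 1130.4 in ES and 2265, 1326 and 1445 in EB on chip A (log2 change 0.49, adjusted p = 0.243). The second Msx1 probe set of chip A overlapped between groups (log2 change -0.04). Isl1, a LIM factor of motor neurons and cardiac progenitors, was dim, at 111, 117 and 122 in ES and 385, 149.5 and 408 in EB (log2 change 0.77, adjusted p = 0.172). The second Isl1 probe set was dimmer and overlapped between groups (log2 change 0.19). Isl2, a motor neuron factor, pointed the other way, from 2639, 2261 and 1652 in ES to 1152, 1359 and 1638 in EB, with no overlap but nearly equal values on the third arrays of the groups (log2 change -0.60, adjusted p = 0.134).

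Six5, a sine oculis-class factor needed for lens clarity in mice, rose on chip A. ES arrays gave 84, 132 and 352, EB arrays gave 677, 828 and 551, and the log2 change was 1.40 (SE 0.36, adjusted p = 0.0487). The third ES array was the high one of its group, and the groups stayed apart. Six4 and Six2 were brighter and not called on chip A. Six4 read 1847, 2163 and 1694 in ES and 1209.5, 1348 and 1383 in EB (log2 change -0.49, adjusted p = 0.137). Other Six4 probe sets overlapped between groups, with log2 changes of -0.03 on chip A and of -0.10 and 0.21 on chip B.

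Pax1, a factor of the sclerotome and pharyngeal pouches, rose on chip B from 108, 114 and 96 in ES to 589, 450.1 and 566 in EB (log2 change 1.13, SE 0.26, adjusted p = 0.0248). Both groups were tight, and both means were under 4 pseudocounts, which made Pax1 the only called member that was dim in both groups. On chip A the Pax1 probe set was near the pseudocount in both groups, with a log2 change of -0.22. Alx1, a paired-like factor of cranial mesenchyme, read 109.7, 130.0 and 92 in ES and 399, 484 and 206 in EB on chip B (log2 change 0.73, adjusted p = 0.0946). The second Alx1 probe set of chip B pointed the other way, with overlap (log2 change -0.29). Dlx4, expressed in placenta and branchial arches, had signals of 1185, 884 and 1154 in ES and 2809.8, 2641 and 1753 in EB on chip B. These did not overlap (log2 change 0.98, adjusted p = 0.0576). On chip A Dlx4 overlapped between groups (log2 change 0.13, adjusted p = 0.846).

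Limb, bone and mesenchyme genes gave 0 calls among 9 on chip A, where 3.46% of all genes rose and 3.45% fell. At an unadjusted limma p under 0.05, 1 of them was higher there and 0 were lower. That 1 was Msx2, also counted with the spinal cord and neural crest genes. On chip B 1 of 6, Pax1, rose and none fell, against 6.35% and 6.56% of all genes. There 2 of the 6 were higher and 0 lower at an unadjusted limma p under 0.05. Prrx1, a factor of limb and craniofacial mesenchyme that fibroblasts also express, read 457, 459.5 and 479 in ES and 25, 362 and 482 in EB on its brightest chip A probe set. Its log2 change of -0.71 did not pass (95% interval -1.76 to 0.34), and the first EB array was the low one. All 6 Prrx1 probe sets of the 2 chips had values below 0, from -0.71 to -0.43, and none passed. The summed feeder fibroblast markers of chip A were lower in EB, and their part in the values of Prrx1 was not tested.

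Heart and foregut genes gave 0 calls among 8 on chip A, where 3.46% of all genes rose and 3.45% fell. At an unadjusted limma p under 0.05, 1 of them was higher and 0 were lower. That 1 was Isl1, also counted with the spinal cord and neural crest genes. Nkx2-5, the cardiac NK factor, read 1269, 1266 and 807 in ES and 827, 784 and 517 in EB (log2 change -0.56, 95% interval -1.16 to 0.04). Nkx2-3 and Nkx2-6 overlapped between groups on their brightest chip A probe sets.

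The 3 members that fell were all measured on chip B. Gbx1, a paralog of Gbx2 expressed in the dorsal spinal cord, went from 2609.6, 2295 and 2414 in ES to 498, 864 and 339 in EB. The ES arrays were tight and all above the EB arrays, and the log2 change was -1.76 (SE 0.34, adjusted p = 0.0122). Nkx6-3, an NK factor of the stomach and hindbrain, went from 1350.3, 1201 and 1139.9 to 314, 339 and 241, again with separate groups (log2 change -1.43, SE 0.35, adjusted p = 0.0309).

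Pax5, the B-cell and midbrain-hindbrain paired-box factor, read 4939, 4584 and 3684 in ES and 1852, 2954 and 1388 in EB (log2 change -1.05, SE 0.28, adjusted p = 0.0392). The highest EB array lay under the lowest ES array. The Pax5 probe set of chip A gave no such fall: it was near the pseudocount in both groups, at 56, 116 and 94 in ES and 140.0, 276 and 76 in EB. Of 9 leukocyte markers on chip A, 1 fell, and their summed signal was 4008 to 7530 in ES and 2812 to 3840 in EB. Their part in the Pax5 and Pou2f2 values was not tested. Pou2f2, an octamer factor of lymphoid and neural cells, read 2064, 1143 and 992 in ES and 287, 429 and 721 in EB on chip B, without overlap (log2 change -1.16, adjusted p = 0.0976). On chip A the probe set that stands for Pou2f2 overlapped between groups (log2 change -0.01). The other Pou2f2 probe set there was not called either (log2 change -0.96, adjusted p = 0.147).

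Of the 43 members with more than 1 probe set, 23 had all changes of 1 sign. Exactly 1 probe set was called in 9 of them, more than 1 in Pbx2, and in no member did called probe sets point opposite ways. The plot of all probe sets shows where a call rests on a single one. For Pou3f2 the brightest chip B probe set changed by 2.19, while the values were 0.40 for the other chip B probe set and 0.22 for the chip A one, neither called. For Pou4f1 the second chip B probe set had a value of 0.24 and was not called. Both chips received the same samples, so agreement between them is not independent evidence. Suffixes of Affymetrix names bear on this: a name ending in _s_at can match transcripts of more than 1 gene, and the probe set that stands for Pbx3 on chip B has that ending.

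**Figure D3:**
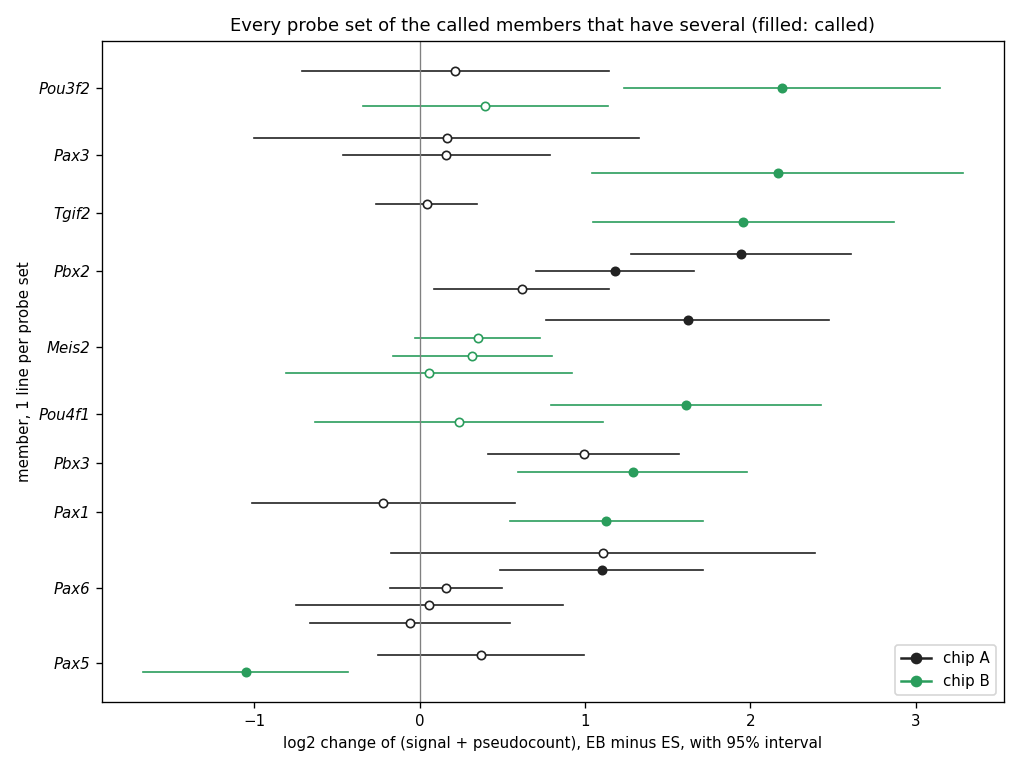
Log2 change with its 95% interval (x axis, EB minus ES) for every probe set of the 10 called members that have more than 1, black for chip A and green for chip B, filled where called. Pbx2 is the only gene with 2 filled points, and Tgif2, Pax3 and Pou3f2 each have 1 filled point far to the right of an unfilled one.

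Many members were dim. A mean signal over 4 pseudocounts (548 on chip A, 1013 on chip B) was reached in neither group by 44 of the 82 members of chip A (53.7%), against 35.2% of all genes. It was reached in EB alone by 12 members (14.6%), against 3.6% of all genes, in ES alone by 7 (8.54%, against 6.56%), and in both groups by 19 (23.2%, against 54.7%). On chip B 14 of 39 members reached it in neither group (35.9%, against 29.7% of all genes), 7 in EB alone (17.9%, against 10.4%), 4 in ES alone (10.3%, against 8.74%) and 14 in both groups (35.9%, against 51.1%).

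Proteins that these factors work with were examined as a list. Of 29 cofactors on chip A, 5 rose and none fell, with 3 lower at an unadjusted limma p under 0.05. Over all genes of that chip, 3.46% rose and 3.45% fell. Ssbp3 and Ssbp2, which stabilise the Ldb1 complexes that LIM-homeodomain factors such as Lhx2 use, were among the cofactors that rose. Ssbp3 read 1698.0, 2023 and 2543 in ES and 5659.8, 5302 and 4146 in EB (log2 change 1.22, adjusted p = 0.00728). Ssbp2 read 561, 397 and 615 in ES and 1841, 1816 and 1236 in EB (log2 change 1.41, adjusted p = 0.0127). The corepressors Hdac2 (log2 change 1.07), Tle3 (0.86) and Ctbp1 (0.85) also rose, whereas Hdac1, the brightest cofactor that was not called, had a log2 change of -0.06. The groups of each of these 5 rising genes were separate. On chip B the cofactors among them that were measured did not pass: the log2 change was 0.18 for Ctbp1, the brightest uncalled cofactor there and read by the same probe set, 0.41 for Hdac2, 0.48 for Ssbp2 and -0.33 for Tle3.

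Of 13 cofactors on chip B, 1 rose and 1 fell, against 6.35% and 6.56% of all genes. Both were Eya proteins, the phosphatase coactivators of Six-family factors. Eya4 read 549, 217 and 345 in ES and 1075, 1523 and 1304 in EB (log2 change 1.34, adjusted p = 0.0498). Eya3 read 858, 2220.1 and 3690.1 in ES and 448, 208 and 573 in EB (log2 change -1.78, adjusted p = 0.0452). On chip A neither gene was called, with log2 changes of 0.02 for Eya4 and -0.19 for Eya3.

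Leaving out 1 array at a time changed many of these calls. Otx1 and Emx2 were the only called members that kept an adjusted p under 0.05 in all 6 such fits, with values up to 0.0126 for Otx1 and 0.0212 for Emx2. Lhx2 lost its call only without EB replicate 1 (adjusted p = 0.0504) and Gbx1 only without ES replicate 1 (0.0547). The number of members that rose on chip A, 6 with all arrays, was 2, 4 and 6 without ES replicate 1, 2 and 3, and 0, 3 and 2 without EB replicate 1, 2 and 3. Without EB replicate 1, 13 members were higher at an unadjusted limma p under 0.05. On chip B the 8 rises became 4, 4 and 6 without ES replicate 1, 2 and 3 and 4, 6 and 2 without EB replicate 1, 2 and 3. The 3 falls there became 0, 1 and 1 without ES replicate 1, 2 and 3 and 1, 2 and 1 without EB replicate 1, 2 and 3, and without ES replicate 1, 5 members were lower at an unadjusted limma p under 0.05. Calls over all probe sets of a chip, rises and falls together, also moved. On chip A the 1425 called with all arrays became 466, 874 and 2092 without ES replicate 1, 2 and 3. Without EB replicate 1, 2 and 3 they became 434, 625 and 644. On chip B the 2407 became 1029, 1411 and 1546, and 934, 1806 and 1165, in the same order.

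**Figure D4:**
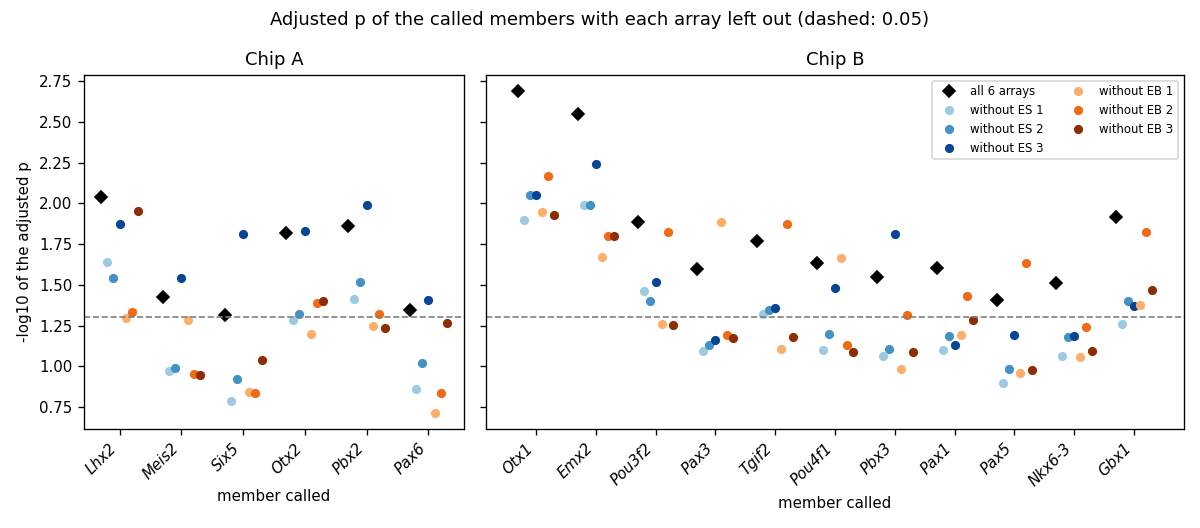
Adjusted p of the 17 called members, plotted as -log10 (y axis), with all 6 arrays of the chip (diamonds) and with each array left out (circles, blue for ES and orange for EB). The dashed line is 0.05. Only Otx1 and Emx2 have all 6 circles above the line.

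Arrays were also compared within the position of the fluidics station recorded for them. Since the groups of every called member were separate, the direction at each position was fixed, and only the sizes are informative. On chip A 2 positions held both groups, and the changes of the 6 rising members there ran from 0.77 to 2.63 on the log2 scale. On chip B 3 positions did, with changes from 0.62 to 3.95 for the 8 rising members and from -2.17 to -0.59 for the 3 falling ones. With position as a block, Six5, Pax6 and Nkx6-3 lost their calls.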

How the data were processed

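RNA of 3 ES and 3 EB replicates was hybridised to MOE430A and MOE430B arrays. Per the submitters' processing notes, the authors made the deposited intensity values with MAS5, with the version not stated. The deposited intensities were linear, and the trimmed mean of each array (lowest and highest 2% left out) was 1501 on chip A and 1500 on chip B, as read from the values, which shows scaling to 1 target before deposit, and no further normalization was applied. Detection calls were not used here.

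Probe sets with 1 gene in the platform annotation were 20380 on chip A and 14661 on chip B. All member symbols matched RefSeq. On each chip 1 probe set stood for a gene: one not ending in _x_at first, then the highest mean. limma 3.58.1 in R 4.3.3 was fitted to log2(intensity + pseudocount), the pseudocount being the 20th percentile of the chip's values, with an intensity trend and Benjamini-Hochberg adjustment over all 22626 and 22511 probe sets that are not controls. Intervals are 95% intervals of that fit. The fit was tested on simulated data.

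The members and lists were chosen with earlier results of these data known. Named genes were the called members, the brightest uncalled member of each class, the 6 uncalled members with the smallest p on each chip, a fixed set of early developmental genes, and the called and brightest uncalled cofactors. A few further members are named for their role or for disagreement between chips. Promoter windows came from RefSeq (GRCm38.p6), and protein sequences were not analysed here. Alternatives covered normalization, pseudocount, dim probe sets, trend, blocks, thresholds and leaving out each array. The number of arrays limits the precision.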

Additional observations from a re-analysis of the deposited data

How the results depend on the processing

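Directions of the called members held under every alternative run, and none reversed. Since the groups of every called member were separate, this was largely fixed in advance and gives no support of its own. The 6 rises on chip A became 10 when dim probe sets were left out, 10 with scan day as a random block and 1 at an adjusted p of 0.01, and 0 to 6 with 1 array left out. The added genes were Irx1, Lhx5, Msx2 and Pbx3 in the first case, and Lhx5, Meis1, Msx2 and Pbx3 in the second. Calls over all probe sets of chip A also grew, from 1425 to 1937 in the first case and 2243 in the second. No scan day held both groups, so the random block cannot adjust the comparison for scan day. Its fitted correlation was -0.11. The absence of falls on chip A became 1 with fluidics position as a block (Pou3f3) and 0 to 2 with 1 array left out (Isl2 and Pou3f3 without ES replicate 3). On chip B the 8 rises became 2 at an adjusted p of 0.01 and 2 to 6 with 1 array left out. The 3 falls became 0 at an adjusted p of 0.01, with 7 at an unadjusted limma p under 0.05, and 0 to 2 with 1 array left out. Six5 lost its call with a pseudocount of 1 and without the intensity trend, Pax5 in the same settings, Pbx3 without the trend, and Pax6 with the chip median as pseudocount. The cause of these changes was not tested, except that fits without an array hold fewer samples.

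Same-numbered samples did not deviate together: correlations of deviations from the group means were -0.07, 0.04 and -0.01 on chip A and -0.02, -0.03 and -0.02 on chip B. With the replicate number as a block, 4 members rose and 0 fell on chip A (without Six5 and Pax6), and 8 rose and 2 fell on chip B (without Nkx6-3). On chip B this block is the same as fluidics position. A scan-day block could not be fitted on chip B, and a change of background correction was not run, because the deposited values hold no background signal. Members near the pseudocount have the least certain changes.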

Other observations

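The opposite-strand transcripts that share a symbol with a member did not pass the threshold, including those of members that rose. Emx2os, transcribed opposite Emx2, read 1563, 617 and 828 in ES and 1370.2, 1404 and 976 in EB on the chip on which Emx2 rose (log2 change 0.32, adjusted p = 0.616). Otx2os1 had a log2 change of 0.13 and Pax6os1 of 0.28 on chip B, and each overlapped between groups. Dlx4os pointed the other way from Dlx4 on chip B, at 370.0, 1041 and 1037 in ES and 282, 187 and 348 in EB (log2 change -0.96, adjusted p = 0.153). Whether the probes of these transcripts are strand-specific was not tested.

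Homeobox genes outside the symbol rule were listed beside the members. Of 45 on chip A, 6 rose and none fell, with 0 lower at an unadjusted limma p under 0.05. Among the members on that chip 7.32% rose and 0 fell, and among all genes 3.46% rose and 3.45% fell. Rises without falls on chip A were thus not particular to the members. Lhx1, a LIM factor of the streak, head organizer and kidney, went from 167, 25 and 24 in ES to 892, 336 and 1742 in EB (log2 change 2.28, adjusted p = 0.0270). Evx1 and Mixl1, both genes of the primitive streak, had log2 changes of 1.87 and 1.76, with separate groups. Zfhx4 (1.62), Satb1 (1.51) and Zeb2 (1.16) also rose, and Hopx, the brightest uncalled gene of the 45, had a log2 change of -0.21. The chip B probe sets of Zfhx4 (1.14), Satb1 (-0.06) and Zeb2 (-0.14) were not called. Of 21 on chip B, Zhx3 (1.32), Cux2 (1.20) and Zhx2 (1.03) rose and Zfhx2 fell by 1.74 on the log2 scale. Zfhx3, the brightest uncalled gene of the 21, had a log2 change of -0.39. Over all genes of chip B, 6.35% rose and 6.56% fell.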
